A study of Mus musculus with 3 samples.

Results

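Effectors of CDC42 are proteins that bind the GTP-loaded form of this small GTPase and carry its signal to the actin cytoskeleton, septins and myosin. The genes described here are 10 of the 28692 in the tables: Cdc42ep1, Cdc42ep4, Cdc42ep5, Cdc42bpa, Cdc42bpb, Cdc42se1, Wasl, Pak2, Pak4 and Iqgap1. They were chosen by name as known effectors or CDC42-binding proteins, with earlier results of these data known. Their messenger RNA was measured by 3′ single-cell sequencing (10x Genomics Chromium, version 3 chemistry) of small intestinal crypts from C57BL/6 mice aged 2 to 3 months, in 3 libraries with 1 library for each genotype. The rescue animal was CDC42flox/flox, Yapflox/flox and Tazflox/+, the KO animal CDC42flox/flox and the control animal CDC42+/flox, so the control too can lose 1 copy of Cdc42. Every genotype carried Olfm4-IRES-eGFPCreERT2, a drug-inducible Cre expressed from the stem cell gene Olfm4, so that recombination starts in the crypt base and is inherited by the descendants of those cells. The labels do not give the dose or timing of induction or whether animals were pooled.

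When CDC42 is loaded with GTP it opens autoinhibited effectors or brings them to membranes. The Borg proteins (the Cdc42ep genes) bind septins, the MRCK kinases (Cdc42bpa, Cdc42bpb) act on myosin light chain and its phosphatase, N-WASP (Wasl) switches on the actin-nucleating Arp2/3 complex, and the p21-activated kinases (Pak2, Pak4) phosphorylate cytoskeletal regulators. In the intestinal epithelium CDC42 is known for apical-basal polarity and for maintaining the crypt, and YAP and TAZ are transcriptional co-activators that bind DNA through TEAD factors.

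The promoters of 4 members are shown because 3 of them, Cdc42ep5, Cdc42bpb and Wasl, were higher in the KO library than in the other 2, and Cdc42ep1 was lower. Each run covers 250 bases before and 50 after the annotated start (RefSeq, GRCm38.p6), 5′ to 3′ on the gene's strand. Capitals mark the letters GGAATG, the core of the TEAD motif, and GGGCGG, the GC box, or their reverse complements. The windows are chr7:4164656-4164955 (minus strand), chr12:111377669-111377968 (minus), chr6:24664946-24665245 (minus) and chr15:78842397-78842696 (plus).
Cdc42ep5: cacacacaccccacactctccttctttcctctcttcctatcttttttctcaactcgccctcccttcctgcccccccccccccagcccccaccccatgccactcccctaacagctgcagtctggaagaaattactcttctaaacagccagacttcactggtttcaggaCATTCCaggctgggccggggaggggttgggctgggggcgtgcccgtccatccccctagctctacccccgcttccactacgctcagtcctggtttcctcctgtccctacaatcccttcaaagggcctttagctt
Cdc42bpb: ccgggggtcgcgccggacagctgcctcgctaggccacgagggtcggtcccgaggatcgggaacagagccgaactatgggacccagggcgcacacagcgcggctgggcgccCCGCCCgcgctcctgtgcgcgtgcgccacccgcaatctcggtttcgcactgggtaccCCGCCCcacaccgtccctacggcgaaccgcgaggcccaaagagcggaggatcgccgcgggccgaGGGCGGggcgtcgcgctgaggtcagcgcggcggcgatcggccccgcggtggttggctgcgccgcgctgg
Wasl: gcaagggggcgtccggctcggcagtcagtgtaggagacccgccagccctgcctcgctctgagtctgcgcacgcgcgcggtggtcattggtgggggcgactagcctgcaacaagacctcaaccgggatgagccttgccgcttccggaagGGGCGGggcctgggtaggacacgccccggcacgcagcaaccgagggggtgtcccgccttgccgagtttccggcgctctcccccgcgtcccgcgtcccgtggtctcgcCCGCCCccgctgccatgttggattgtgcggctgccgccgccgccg
Cdc42ep1: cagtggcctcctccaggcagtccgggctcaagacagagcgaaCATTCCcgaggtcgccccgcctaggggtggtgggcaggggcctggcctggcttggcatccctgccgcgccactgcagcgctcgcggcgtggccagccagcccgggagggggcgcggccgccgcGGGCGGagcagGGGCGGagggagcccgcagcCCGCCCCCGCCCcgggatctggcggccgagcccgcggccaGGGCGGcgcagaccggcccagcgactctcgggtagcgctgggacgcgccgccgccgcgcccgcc

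The first 3 promoters differ in make-up although their genes share a direction. The Cdc42ep5 window has 58.7% G or C, 6 CpG pairs, 1 GGAATG match and no GC box. The Cdc42bpb window has 75.7% G or C, 48 CpG pairs, 3 GC boxes and no GGAATG, and that of Wasl has 72.3%, 36 CpG pairs, 2 GC boxes and no GGAATG. Cdc42ep1 has 80.0% G or C, 40 CpG pairs, 1 GGAATG and 5 GC boxes. Over the 32851 promoter windows of the table the median was 52.7% G or C and 7 CpG pairs, so the last 3 lie in CpG-rich starts. GGAATG or its complement occurs in 14.7% of all windows and GGGCGG in 35.7%, and among the 9 members that matched the table (all but Pak2) GGAATG occurs in Cdc42ep1, Cdc42ep5 and 1 of the 2 starts of Cdc42ep4. The AP-1 motif TGANTCA, in 7.81% of all windows, occurs in no member window, nor does the CArG box (1.63%). These are letter matches in short windows and say nothing of binding.

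A barcode counted as an epithelial cell if it had 1000 or more UMIs (unique molecular identifiers, the counted molecules) from 500 or more genes, no more than 20% of them mitochondrial, with 2 or more from Epcam and none from Ptprc. This left 726 rescue, 1504 KO and 515 control cells, with medians of 46115, 41467 and 33401 UMIs. They were divided, in this order, into cycling cells (at least 2 Mki67 UMIs; 247, 213 and 77 cells), Lgr5-positive cells (24, 7 and 124), Muc2-high cells (at least 10 Muc2 UMIs; 40, 190 and 61) and other cells (415, 1094 and 253), in rescue, KO and control. The labels give 4000 to 5000 cells harvested per sample, and the files hold 3449, 4786 and 6152 barcodes; the limits on genes, UMIs and mitochondrial share kept 55.0%, 42.5% and 25.9% of them, and the libraries share 3 to 11 barcodes pairwise. Levels are CPM, UMIs of the gene per 1000000 UMIs of the cells summed, with exact 95% Poisson intervals in brackets, and ratios have exact conditional binomial intervals. Both cover counting error only. With 1 library per genotype there is no replicate spread, so no test is given and every ratio compares these libraries, not the genotypes.

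Markers of several cell types differed between the libraries. All 7 epithelial markers were present in each library, at a summed 8794, 17161 and 7545 CPM in rescue, KO and control. The Paneth markers Lyz1, Defa24, Defa17, Ang4 and Mmp7 summed to 12905, 783 and 74504 CPM, and in Muc2-high cells to 85369.6, 8409.6 and 258549. Muc2-high therefore does not mean goblet cell in the control. Cells with at least 5% of their UMIs in these markers numbered 11, 8 and 46, and as a choice made after seeing the data the counts of members past the fold, the ratios of members that the class results turn on and the counts in the pathway lists are also given without these Paneth-high cells. The order of levels, the nearest patterns and the thinned shares include them. The 6 enterocyte markers summed to 9208, 31907 and 14573 CPM, the 6 stem cell markers to 283, 70.4 and 726, and the 12 immune markers, of which 1 was at 0 in each library, to 173, 6.45 and 21.2. The 5 enteroendocrine markers summed to 396, 225 and 1924 CPM. Their part in the results was not tested beyond leaving out Paneth-high cells and comparing within classes.

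Cdc42 itself stood at 383 (377-389) CPM in rescue, 384 (379-389) in KO and 249 (242-256) in control epithelium. It was not lower in the libraries with 2 floxed alleles. The sources used here do not say which exons are deleted, and 3′ tags outside them cannot check the label, so rescue, KO and control name the libraries as labelled.

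Of the 10 effectors, 5 were at least 1.5-fold higher in KO than in control epithelium, where 18.2% of genes were: Cdc42ep5, Cdc42bpb, Cdc42se1, Wasl and Pak2, with ratios between 1.57 and 2.50. In rescue over KO, a comparison that shares the KO library, their ratios lay between 0.498 and 0.609. Cdc42ep1 was 5.91-fold (4.79-7.32) lower in KO than in control, but 1.89-fold lower with the 4 cell classes weighted equally and 3.57-fold lower when cells were thinned to 5000 UMIs. Equal weights give the KO Lgr5-positive level, 18.8 (3.88-55.0) CPM from 7 cells, as much weight as the other classes. Gene positions are those of GENCODE vM21 (GRCm38), matched by Ensembl gene ID. The remaining members, Cdc42ep4, Cdc42bpa, Pak4 and Iqgap1, were within 1.5-fold in all 3 comparisons of the whole epithelium scaled to UMI totals.

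**Figure D1:**
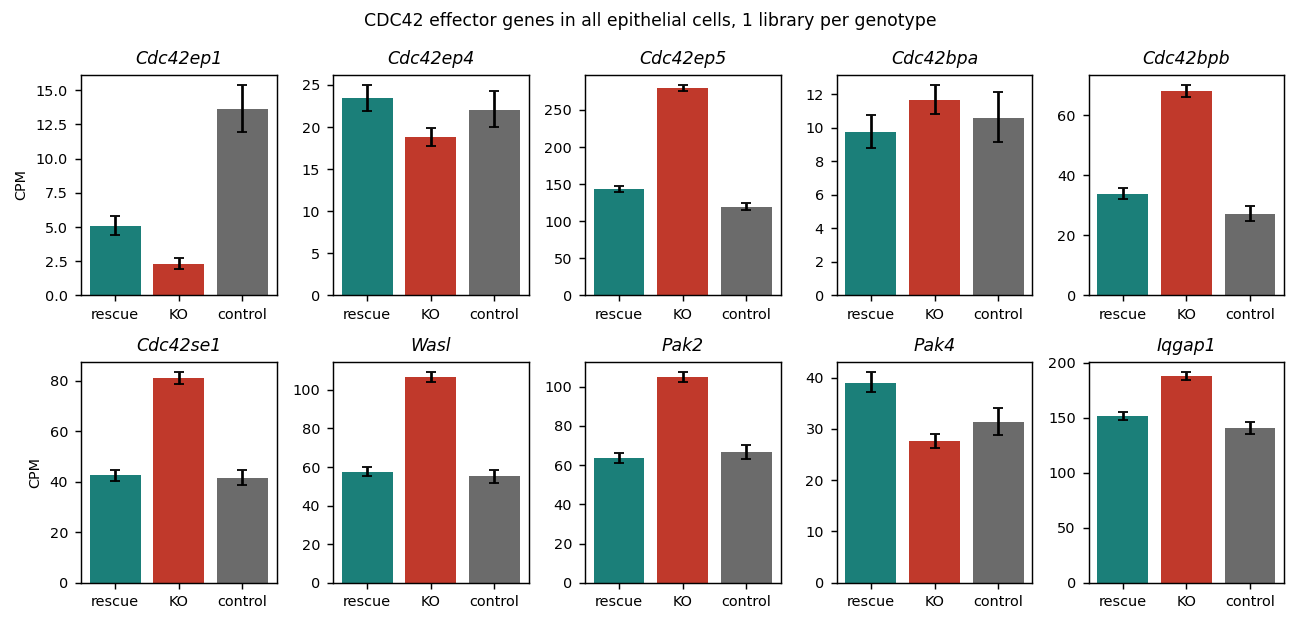
Levels of the 10 effectors in all epithelial cells. Bars give CPM in the rescue, KO and control libraries and the lines exact 95% Poisson intervals. Cdc42ep5 reaches 279 CPM in KO, above 143 in rescue and 119.8 in control, whereas Cdc42ep1 is lowest in KO at 2.30 CPM.

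Among the Borg proteins, the septin-binding effectors, the 3 members behaved differently. Cdc42ep1 (Borg5; ENSMUSG00000049521, chr15:78842624-78850897) stood at 5.07 (4.39-5.82) CPM in rescue, 2.30 (1.93-2.71) in KO and 13.6 (11.96-15.4) in control, from 202, 141 and 252 UMIs. The control was highest and no interval overlapped another. Rescue over KO was 2.21 (1.77-2.76), and rescue was still 2.68-fold (2.22-3.24) lower than control. The rescue over KO direction did not hold when the 4 classes were weighted equally, with a log2 ratio of -0.12 (and a ratio of 1.22 with 3 classes), or when cells were thinned to 5000 UMIs, with -0.021. The 4-class value rests in part on the 7 KO Lgr5-positive cells, a class that the 3 classes leave out. Cdc42ep5 (Borg3; ENSMUSG00000063838, chr7:4151260-4164860) showed the reverse, with 143 (139.5-147) CPM in rescue, 279 (275-284) in KO and 119.8 (115-125) in control. KO was 2.33 (2.23-2.44) times control, or 4.07 in cells with at most 10% mitochondrial UMIs, and rescue was 1.95-fold (1.89-2.01) lower than KO. Cdc42ep4 (Borg4; ENSMUSG00000041598, chr11:113726850-113751881) stood at 23.4 (22.0-25.0), 18.8 (17.8-19.9) and 22.0 (19.96-24.3) CPM in rescue, KO and control. Its KO over control ratio of 0.854 became 1.16 with TMM scaling, so no direction is given.

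The paralogous MRCK kinases, which phosphorylate the myosin regulatory machinery, also parted. Cdc42bpb (MRCKβ; ENSMUSG00000021279, chr12:111292976-111377718) stood at 33.8 (32.0-35.7) CPM in rescue, 67.9 (65.9-70.0) in KO and 27.2 (24.9-29.7) in control. The KO library was the high one, 2.50 (2.27-2.74) times control. That ratio was 1.66 with equal weight per cell and 3.80 at 10% mitochondrial UMIs. Rescue was 2.01-fold (1.89-2.14) lower than KO. Rescue over control was 1.24 (1.12-1.38), but 0.746 with equal weight per cell, so no direction is given for it. Cdc42bpa (MRCKα; ENSMUSG00000026490, chr1:179960472-180165603) stood at 9.76 (8.82-10.8), 11.7 (10.8-12.5) and 10.6 (9.14-12.2) CPM in rescue, KO and control, and its KO over control ratio of 1.10 (0.940-1.298) has an interval that holds 1.

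Wasl (ENSMUSG00000029684, chr6:24613805-24665009), which encodes the Arp2/3 activator N-WASP, stood at 57.5 (55.2-59.9) CPM in rescue, 106 (104-109) in KO and 55.1 (51.8-58.6) in control. Rescue and control overlapped and KO lay above both, 1.93 (1.81-2.07) times control. Rescue was 1.85-fold (1.76-1.94) lower than KO. Cdc42se1 (ENSMUSG00000046722, chr3:95228732-95236409), a small membrane-anchored CDC42-binding protein also called SPEC1, had the same order, with 42.4 (40.4-44.5), 81.0 (78.7-83.2) and 41.4 (38.5-44.4) CPM in rescue, KO and control. KO was 1.96 (1.81-2.11) times control and rescue 1.91-fold (1.80-2.02) lower than KO, and the rescue over control ratio of 1.03 (0.941-1.12) holds 1.

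Of the p21-activated kinases, Pak2 (group I, released from autoinhibition by CDC42 or RAC1; ENSMUSG00000022781, chr16:32016290-32079342) stood at 63.8 (61.3-66.3) CPM in rescue, 105 (102-107) in KO and 66.6 (62.9-70.4) in control. KO was 1.57 (1.48-1.67) times control, but 1.36 (1.28-1.45) times once Paneth-high cells were left out, which takes it under 1.5-fold. It also came under it with equal weight per cell, at 1.37, without mitochondrial and ribosomal protein genes, at 1.46, and with any number of Ptprc UMIs, at 1.49. Rescue was 1.64-fold (1.57-1.72) lower than KO, a ratio that moved from 0.609 to between 0.676 and 0.699 under 3 alternatives, short of the fold. Pak4 (group II; ENSMUSG00000030602, chr7:28558819-28598185) did not share this order, with 39.0 (37.1-41.0), 27.6 (26.3-29.0) and 31.4 (28.9-34.0) CPM in rescue, KO and control. Its rescue over KO ratio was 1.41 (1.32-1.51), and its KO over control ratio of 0.881 turned to 1.19 with TMM scaling. Pak4 overlaps Samd4b on the same strand in the annotation (GENCODE vM21), so reads could be shared and its level is uncertain. Samd4b stood at 26.5, 31.7 and 24.6 CPM in rescue, KO and control. Cdc42ep1 overlaps Lgals2 on the other strand, which stood at 2671, 2942 and 1848 CPM, and Cdc42se1 and Cdc42bpb also have a gene on the other strand; whether counting used the strand is not stated in the labels. The scaffold Iqgap1 (ENSMUSG00000030536, chr7:80711583-80825974), which ties CDC42 and RAC1 to actin, stood at 151 (148-155), 188 (184-191) and 140.3 (135-146) CPM in the same order. KO was 1.34 (1.28-1.40) times control, but 1.81 with TMM scaling, 1.77 at 10% mitochondrial UMIs, and 1.61 and 1.59 with 4 and 3 classes weighted equally.

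The 5 members at least 1.5-fold higher in KO than in control compare with 18.2% of the 12668 genes that reached 20 UMIs in KO or control, and the 1 member lower by that fold with 39.3%. The member median log2 ratio was 0.53, against -0.28 over all genes tested (both with 1 CPM added). In rescue over KO, 5 members were lower by that fold, against 18.3% of genes, and 1 was higher, against 38.6%; the medians were -0.51 for members and 0.26 for all genes. TMM scaling shifts every log2 ratio by 0.44 in KO over control and -0.37 in rescue over KO, and then 6 members were higher (Iqgap1 added) and 1 lower in the first, against 31.4% and 24.6% of genes. In the second 1 was higher and 7 lower, against 24.0% and 28.9%. The median of all genes was then 0.091 in the first and -0.045 in the second. Rescue over control had no member higher by 1.5-fold, against 10.6% of genes, and 1 lower, Cdc42ep1, against 19.3%. The comparisons of KO with control and of rescue with KO share the KO library, so a high KO level enters both.

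**Figure D2:**
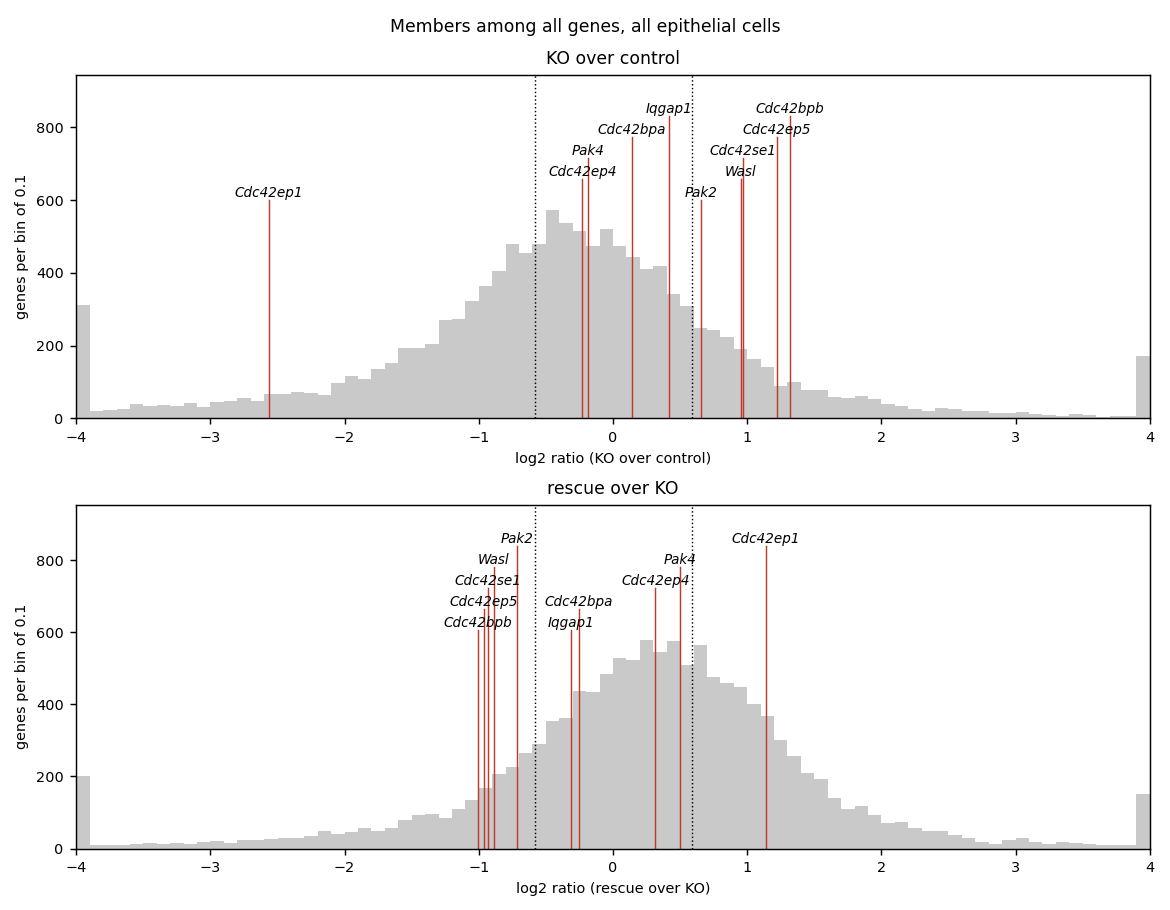
Where the effectors lie among all genes. Grey histograms count genes that reached 20 UMIs in either library of a pair, by log2 ratio in all epithelial cells, with genes beyond 4 in the end bins; dotted lines mark 1.5-fold and red lines the 10 effectors. Beyond the fold lie 5 effectors to the right in KO over control, where 18.2% of genes do, and 5 to the left in rescue over KO.

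Without Paneth-high cells the same comparison gave 4 members higher in KO than in control (14.0% of genes) and 1 lower (48.0%). Rescue over KO gave 1 higher (39.5%) and 5 lower (17.6%), and rescue over control 0 higher (5.67%) and 1 lower (24.2%). Cdc42ep5 was then 1.95 (1.86-2.04) times control, Cdc42bpb 2.07 (1.89-2.28), Cdc42se1 1.68 (1.56-1.83) and Wasl 1.63 (1.52-1.74). Cdc42ep1 was then 5.81-fold (4.65-7.27) lower in KO than in control. In control Paneth-high cells the level of Cdc42ep5 was 32.6 CPM against 143 in the other control epithelium.

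Within cycling cells, those with the proliferation marker Mki67, the KO library again held the high levels of Cdc42bpb, Cdc42se1, Wasl and Iqgap1. Markers moved within this class too, and their part was not tested beyond leaving out Paneth-high cells. Enterocyte markers summed to 1476, 5562 and 1941 CPM in rescue, KO and control, stem cell markers to 458, 253 and 969.7, and Paneth markers to 2726, 72.0 and 57065. There 5 members were at least 1.5-fold higher in KO than in control (21.0% of genes) and 1 lower (15.9%). Cdc42se1 stood at 42.8 (39.9-45.8) CPM in rescue, 89.3 (84.2-94.7) in KO and 36.5 (30.7-43.0) in control, and KO was 2.45 (2.05-2.94) times control, or 2.10 (1.75-2.54) without Paneth-high cells. Cdc42bpb stood at 33.4, 53.9 and 20.7 CPM in rescue, KO and control. KO was 2.60 (2.06-3.32) times control, 2.22 (1.74-2.87) without Paneth-high cells, 1.69 when thinned and 4.08 at 10% mitochondrial UMIs. Cdc42bpb was also the 1 member with rescue cycling cells above control by 1.5-fold, at 1.61 (1.28-2.06), against 11.5% of genes. It was 1.04 when thinned. Without Paneth-high cells that ratio was 1.39 (1.09-1.79), so 0 members were higher (7.42% of genes), and Cdc42ep1 was the 1 lower by the fold both with (12.1%) and without them (16.0%). KO over control without these cells had 4 members higher (14.8%) and 1 lower (20.6%).

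Iqgap1 stayed within 1.5-fold in the whole epithelium with library totals but not among cycling cells. There it stood at 185 (179-191) CPM in rescue, 302 (292-311) in KO and 174 (161-188) in control. KO was 1.73 (1.60-1.89) times control, or 1.53 (1.41-1.68) without Paneth-high cells and 1.24 when cells were thinned to 5000 UMIs. Rescue was 1.63-fold (1.56-1.71) lower than KO, or 1.41-fold when thinned, so both calls end there. In other cells its KO over control ratio was 1.04 (0.979-1.11), but 1.68 with TMM scaling and 0.613 at 10% mitochondrial UMIs. TMM scaling shifted log2 ratios of KO over control in cycling cells by -0.027 only. The difference between the 2 classes thus depends on the scaling, and it was not tested. In rescue over KO, cycling cells had 5 members lower by 1.5-fold, namely Cdc42bpb, Cdc42se1, Wasl, Pak2 and Iqgap1, against 14.3% of genes, and 0 higher, against 14.5%. The counts were also 5 and 0 without Paneth-high cells (14.1% and 14.5% of genes).

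With all UMIs, Cdc42ep5 and Pak2 had KO over control ratios nearer to 1 in cycling cells than in other cells. Cdc42ep5 was 1.52 (1.38-1.68) times control in KO cycling cells and 1.93 (1.81-2.05) in other cells, and in cycling cells without Paneth-high cells it was 1.32 (1.19-1.47). The cycling ratio was 1.33 when thinned. For Pak2 the cycling ratio was 1.41 (1.25-1.59) and that of other cells 1.64 (1.48-1.81), but 1.57 in cycling cells when thinned. At 10% mitochondrial UMIs the Pak2 ratio was 1.52 in cycling and 0.742 in other cells, so its order between these classes was not kept. Neither difference between classes was tested. Cdc42ep1 in cycling cells stood at 7.55, 8.13 and 17.6 CPM in rescue, KO and control, so that rescue and KO overlapped and both lay below control. KO was 2.16-fold (1.57-2.97) lower than control, but 1.76-fold (1.20-2.53) lower without Paneth-high cells and 0.19 higher on the log2 scale when cells were thinned to 5000 UMIs. Few of its UMIs are left by thinning. In a separate draw, 10 of 213 KO cycling cells (4.69%, 2.27-8.46) and 7 of 76 control cycling cells (9.21%, 3.78-18.1) had a UMI of it. These intervals overlap, and the share was lower in KO where the thinned ratio was higher, so thinning gives no direction here.

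Pak4 in cycling cells stood at 47.1 (44.1-50.3) CPM in rescue, 41.4 (37.9-45.1) in KO and 37.3 (31.4-43.9) in control, and Wasl at 58.5 (55.1-62.0), 109.7 (104-116) and 60.5 (53.0-68.8). Wasl was thus highest in KO and Pak4 in rescue, with KO and control overlapping for Pak4. Wasl was 1.81 (1.58-2.09) times control in KO, 1.60 (1.38-1.87) without Paneth-high cells and 1.40 when thinned.

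**Figure D3:**
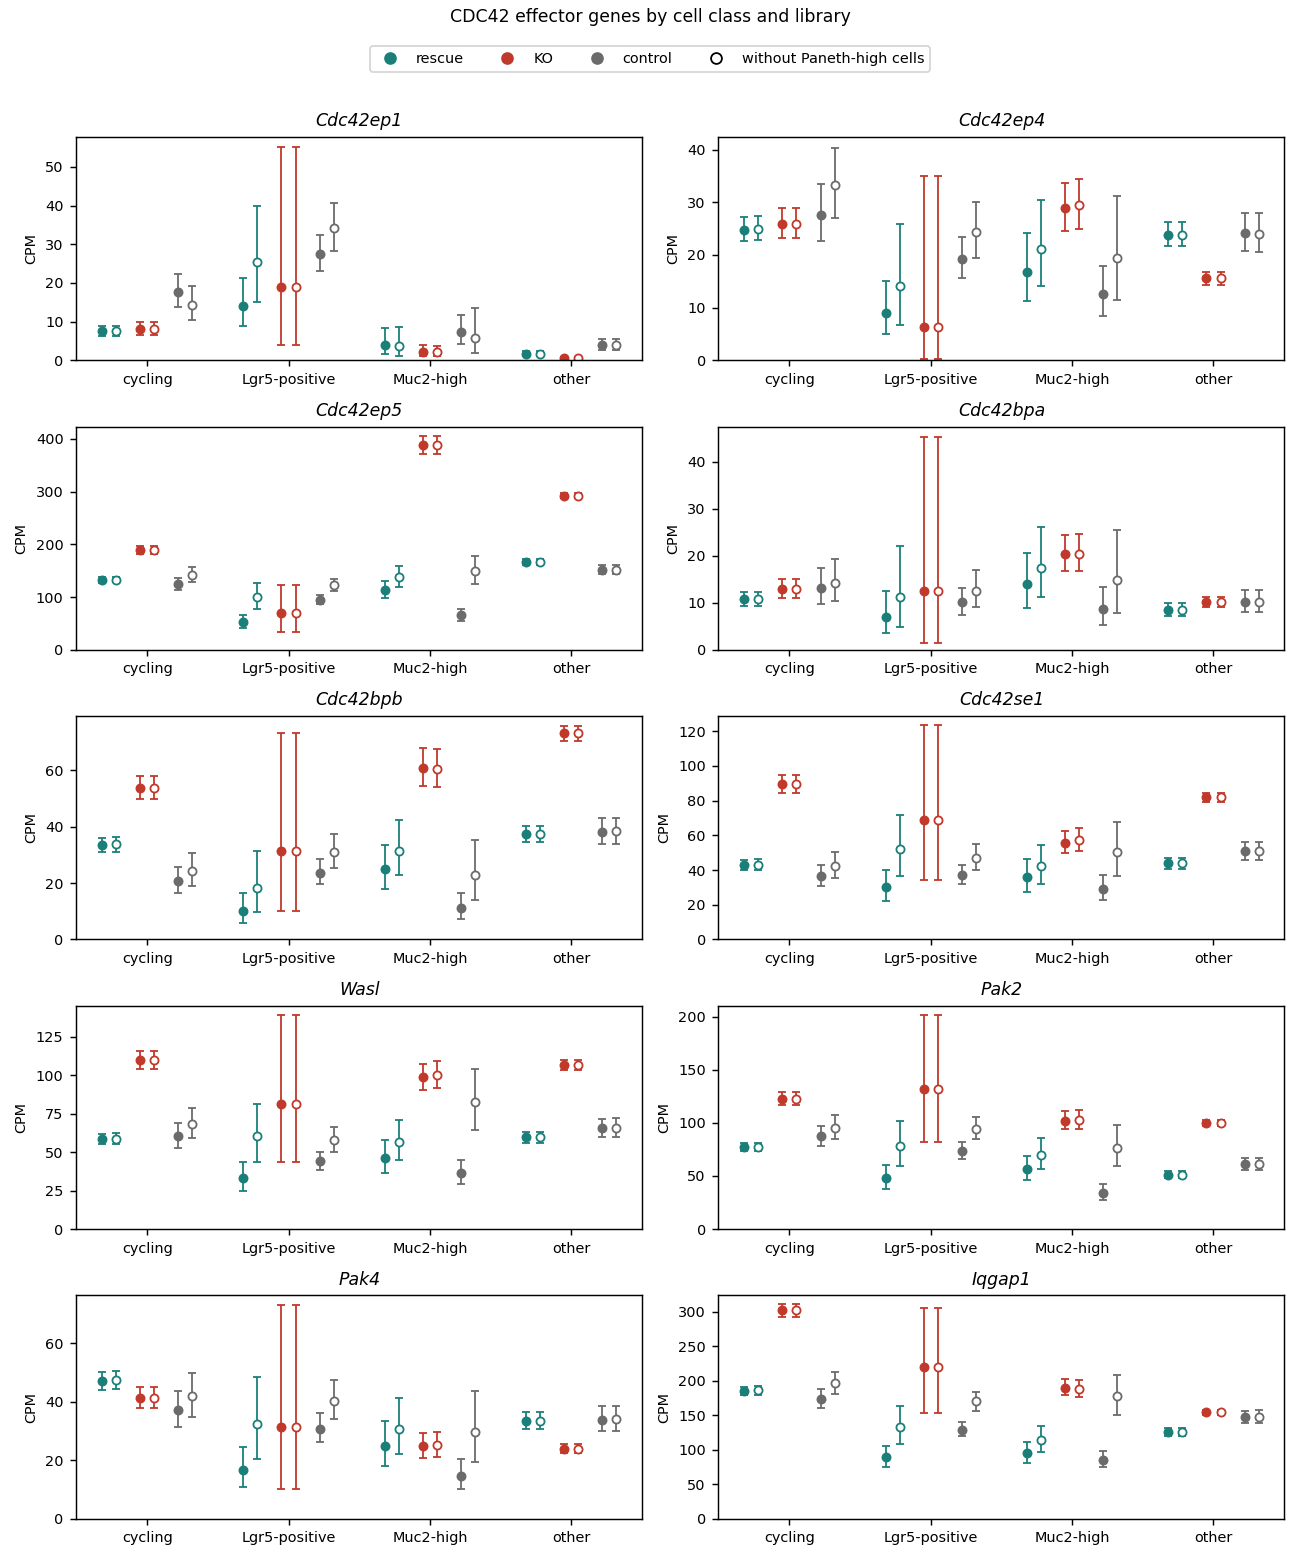
Levels by cell class. Each panel gives 1 effector, with CPM by class in the rescue, KO and control libraries; filled points use all cells of the class, open points leave out Paneth-high cells, and bars are exact 95% Poisson intervals. In the control Muc2-high class Cdc42ep5 is at 65.5 CPM with Paneth-high cells and 150.2 without, and the KO Lgr5-positive points rest on 7 cells.

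Muc2-high cells gave high KO over control ratios, most of which were under 1.5 without Paneth-high cells. With all cells 9 of the 9 members that reached 20 UMIs were higher by 1.5-fold, but so were 53.7% of all genes, and 0 were lower (10.3%). Rescue over KO had 0 higher (22.0%) and 7 lower (24.9%), and rescue over control 5 higher (55.5%) and 0 lower (6.17%). Without Paneth-high cells 3 were, Cdc42ep4, Cdc42ep5 and Cdc42bpb, against 22.5% of genes, with 0 lower (38.5%). Rescue over KO then had 0 higher (32.4%) and 4 lower (17.3%), and rescue over control 0 higher (21.8%) and 1 lower (20.4%), Iqgap1. The interval of Cdc42ep4 holds 1, at 1.51 (0.914-2.66). Cdc42ep5 then stood at 138 (119-159) CPM in rescue, 388 (371-405) in KO and 150.2 (126-178) in control, with rescue and control overlapping and KO 2.58 (2.16-3.104) times control. Cdc42bpb stood at 31.4, 60.5 and 22.9 CPM, a ratio of 2.64 (1.68-4.38). Wasl, at 2.70 (2.15-3.44) times control with all cells, came to 1.22 (0.950-1.58), and Pak4 had a ratio of 1.69 with all cells and 0.841 without Paneth-high cells. The 3 erythroid markers summed to 5453, 11.6 and 28.9 CPM in Muc2-high cells of rescue, KO and control, and their part in the results was not tested.

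In the other cells 5 members were higher by 1.5-fold in KO than in control (13.3% of genes) and 2 lower (48.8%). The higher ones were the same 5 as in the whole epithelium, and the lower ones Cdc42ep1 and Cdc42ep4. The limit on mitochondrial UMIs changed this class. At 10%, which left 73 rescue, 498 KO and 77 control cells, the KO over control ratio was 1.01 for Wasl, 1.21 for Cdc42se1 and 0.742 for Pak2, so these 3 were no longer higher by the fold, and Pak2 took the other direction. The ratio of Cdc42bpa moved from 1.00 to 0.278, that of Iqgap1 from 1.04 to 0.613 and that of Pak4 from 0.707 to 0.587, each then past the fold below control. The shares of all genes at this limit are not given here. Cdc42ep5 was then 4.88 times control in KO and 4.16 times control in rescue, where it was 1.10 at 20%. In rescue over KO the 5 lower members then stood at 0.684 for Cdc42bpb, 0.718 for Cdc42se1, 0.852 for Cdc42ep5, 0.949 for Wasl and 1.06 for Pak2, none lower by the fold. With equal weight per cell, KO over control came to 1.296 for Cdc42bpb, 1.39 for Wasl and 1.43 for Pak2, with thinning to 1.26 for Cdc42se1 and 1.29 for Wasl, and with any number of Ptprc UMIs to 1.37 for Pak2. Leaving mitochondrial and ribosomal protein genes out of the total gave 1.48 for Cdc42se1, 1.49 for Wasl and 1.499 for Pak2. Cdc42ep4 stood at 23.9 (21.6-26.3) CPM in rescue, 15.5 (14.4-16.8) in KO and 24.1 (20.7-27.9) in control, 1.55-fold (1.31-1.83) lower in KO than in control. However, TMM scaling takes that ratio to 1.04, thinning to 0.736 and equal weight per cell to 0.812, whereas at 10% mitochondrial UMIs it was 0.412. Rescue over KO had 5 members lower (17.4% of genes) and 2 higher (37.1%), and rescue over control 0 higher (4.51%) and 1 lower (26.1%), Cdc42ep1. Only 2 control cells of this class were Paneth-high; without them the counts were 5 and 2 for KO over control (13.2% and 48.8% of genes higher and lower), 2 and 5 for rescue over KO (37.1% and 17.4%) and 0 and 1 for rescue over control (4.46% and 26.0%). This class differs in make-up: cells with at least 10 Apoa1 UMIs, an enterocyte gene, numbered 235 of 415 in rescue, 954 of 1094 in KO and 126 of 253 in control. Within those cells alone Wasl stood at 56.7, 107 and 59.6 CPM, Pak2 at 43.3, 100.2 and 44.3, and Cdc42bpb at 38.3, 73.3 and 36.9, highest in KO for these 3 genes. Apoa1-high cells held 41370861 of the 43145717 UMIs of this class in KO and 5417200 of 7305097 in control, so these levels largely repeat those of the class. The limit of 10% mitochondrial UMIs was not applied to them, and the part of cell make-up was not tested.

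In Lgr5-positive cells the KO library had 7 cells, and its ratios are given with no reading. KO over control had 4 members higher (35.1% of genes) and 1 lower (22.4%), or 0 (19.5%) and 3 (30.8%) without Paneth-high cells. Rescue over KO had 0 higher (8.73%) and 5 of 7 lower (61.9%), or 0 (20.8%) and 2 of 6 (17.7%) without them. Between rescue and control, 0 members were higher (1.87%) and 6 lower (48.5%) with all cells. Without Paneth-high cells no member was higher there by 1.5-fold in rescue (6.42% of genes) and 2 were lower (25.6%). These were Cdc42ep4, at 0.577 (0.267-1.11) times control, and Cdc42bpb, at 0.591 (0.305-1.05). Cdc42ep1 stood in this class at 14.1 CPM in rescue, 18.8 in KO, from 3 UMIs, and 27.5 in control. Without Paneth-high cells it stood at 25.3 (15.0-40.0) in rescue and 34.1 (28.2-40.8) in control.

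Several members were tied to cell class within each library, a comparison that does not set libraries against each other. Cdc42ep1 was higher in cycling than in other cells by 4.68 (3.11-7.28) times in rescue, 14.6 (9.29-23.8) in KO and 4.59 (2.92-7.40) in control. In Apoa1-high cells it was low, with 0.755, 0.290 and 0.369 CPM in rescue, KO and control, against 3.73, 6.46 and 21.5 in the remaining other cells. Its low level in the KO epithelium goes with the KO share of Apoa1-high cells (63.4% of epithelial cells, against 24.5% in control), and the part of that share was not tested. Iqgap1 was higher in cycling than in other cells in all 3 libraries, by 1.47 (1.40-1.56), 1.96 (1.88-2.04) and 1.18 (1.07-1.298) times. Pak2 likewise was higher, by 1.503 (1.38-1.64), 1.23 (1.16-1.31) and 1.43 (1.24-1.65). Cdc42bpa was highest in the few other cells with at least 10 Chga or Chgb UMIs, genes of enteroendocrine cells, with 61.9, 48.6 and 52.6 CPM, against 7.66, 12.3 and 11.2 in the remaining other cells. These rest on 21, 11 and 38 UMIs.

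Over the 12 levels of a member (4 classes in 3 libraries), ordered from high to low, few neighbours were apart beyond counting error. The intervals of neighbours overlapped for all 11 pairs in Cdc42ep4, Cdc42bpa, Cdc42se1, Wasl and Pak4, for 10 pairs in Cdc42ep1 and Pak2, for 9 in Cdc42bpb and Iqgap1 and for 7 in Cdc42ep5. The order of most single levels is thus not resolved. The highest level was that of control Lgr5-positive cells for Cdc42ep1, of KO Muc2-high cells for Cdc42ep4, Cdc42ep5 and Cdc42bpa, and of KO other cells for Cdc42bpb. It was that of KO cycling cells for Cdc42se1, Wasl and Iqgap1, of the 7 KO Lgr5-positive cells for Pak2, and of rescue cycling cells for Pak4.

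The share of cells with a UMI of the gene, after every cell was thinned to 5000 UMIs, put KO above the other libraries for Cdc42ep5, Wasl, Cdc42bpb, Cdc42se1, Pak2 and Iqgap1. Thinning left out 60 rescue, 191 KO and 82 control epithelial cells that were shallower. Cdc42ep5 was found in 51.2% (47.3-55.1) of rescue, 68.7% (66.1-71.2) of KO and 41.1% (36.4-45.9) of control epithelial cells, with exact 95% binomial intervals. Wasl was found in 27.9% (24.5-31.5), 43.7% (41.0-46.4) and 27.7% (23.5-32.2), and Cdc42bpb in 14.3% (11.7-17.2), 28.0% (25.6-30.5) and 15.7% (12.4-19.5). In each case KO lay above both other libraries, whose intervals overlapped for Wasl and Cdc42bpb but not for Cdc42ep5. Cdc42se1 was found in 19.4% (16.4-22.6), 28.7% (26.3-31.2) and 21.5% (17.7-25.7), and Pak2 in 27.5% (24.1-31.0), 40.4% (37.8-43.2) and 30.5% (26.2-35.1). Iqgap1 was found in 48.2% (44.3-52.1), 58.0% (55.2-60.6) and 49.4% (44.6-54.2). Here too the KO interval lay above both others. For Cdc42ep4, Cdc42bpa and Pak4 the KO share was not the highest. Cdc42ep1 was found in 2.40% (1.38-3.87), 1.90% (1.24-2.80) and 7.85% (5.50-10.8), highest in control. Without thinning the shares follow depth as well, and no order is read from them. They were, in rescue, KO and control, 92.7%, 90.9% and 77.3% for Cdc42ep5, 81.1%, 84.1% and 71.1% for Wasl, 70.1%, 78.2% and 53.6% for Cdc42bpb and 18.5%, 6.38% and 27.6% for Cdc42ep1. Among cycling cells Iqgap1 was found in 52.5% (46.0-58.9), 76.5% (70.3-82.0) and 60.5% (48.6-71.6) in rescue, KO and control, and unthinned in 98.4%, 99.1% and 94.8%.

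Immune cells of the same libraries (at least 2 Ptprc UMIs, no Epcam; 446 rescue, 105 KO and 349 control cells, of which 195, 54 and 173 had 5000 UMIs; medians 4849, 5066 and 4997 UMIs) served as a background for free RNA. Cdc42ep1 was in 0 of them in every library, which allows a share of cells with a UMI of up to 1.54%, 5.56% and 1.73%. In KO that limit lies above the epithelial share and in rescue inside its interval, so those shares of Cdc42ep1 cannot be told apart from background. Cdc42ep5 was in 2.05%, 11.1% and 3.47%, and Cdc42bpb in 1.54%, 5.56% and 3.47%, all below the epithelial shares of the same library. Wasl was in 17.4%, 18.5% and 12.7%, also below them, though above the other 3 genes, so free RNA and expression in immune cells cannot be told apart for it. Cdc42ep4 was in 2.05%, 13.0% and 2.31% of immune cells and in 10.8%, 11.04% and 11.8% of epithelial cells. Its KO immune share rests on 7 of 54 cells (5.37-24.9%), and that interval holds the KO epithelial share. In KO the epithelial share of Cdc42ep4 thus cannot be told apart from that of immune cells, whether from free RNA or expression. Cdc42se1 was in 41.0%, 35.2% and 19.1% of immune cells, above its epithelial shares of 19.4% in rescue and 28.7% in KO, where control had 21.5%. Iqgap1 and Pak2 are expressed by immune cells too, at 328, 668 and 454 CPM and 191, 159.8 and 134 CPM in rescue, KO and control, so they give no such background. In thinned immune cells Iqgap1 was in 78.97%, 90.7% and 90.2%, above its shares in cycling cells.

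Other genes of the pathway were set beside the members in 5 lists, described in all epithelial cells by the same fold and minimum. The list of WASP partners and Arp2/3 subunits also holds Wasf and Nck genes, so not all of it lies downstream of N-WASP. Of its 19 genes that reached the minimum, 11 were higher by 1.5-fold in KO than in control and 1 lower, with a median log2 ratio of 0.63. Without Paneth-high cells 5 were higher and 2 lower. In rescue over KO 5 were lower and 2 higher, against 18.3% and 38.6% of genes. The Arp2/3 subunit gene Arpc1b stood at 299 CPM in rescue, 742 in KO and 207 in control, and Arpc5 at 186, 339 and 146. The adaptor Nck2 was the lower one, at 14.8, 6.39 and 13.0. Arpc1b in rescue lay above control, at 1.44 (1.39-1.497) times.

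Among 22 genes of the myosin and cofilin arm on which MRCK and PAK kinases act, 8 were higher and 4 lower in KO than in control (median 0.24). Myh14, a non-muscle myosin II heavy chain, stood at 131, 372 and 97.5 CPM in rescue, KO and control, and Myo18a at 41.3, 112 and 32.9. The LIM kinase gene Limk2, whose product phosphorylates cofilin, stood at 24.9, 16.2 and 41.6, lowest in KO. The septins, partners of the Borg proteins, had 3 of 9 higher and 3 lower (median -0.22), with Sept5 at 20.2, 27.7 and 10.2 CPM and Sept6 at 3.56, 1.40 and 6.52.

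Of 24 other CDC42 effectors that reached 20 UMIs, 9 were higher by 1.5-fold in KO than in control and 7 lower (median 0.23). A further Borg gene, Cdc42ep2, had the highest ratio, with 13.4, 65.6 and 10.3 CPM in rescue, KO and control, 6.37 (5.51-7.41) times control in KO. Cdc42se2, the paralogue of Cdc42se1, stood at 40.3, 85.3 and 33.4, and the kinase gene Tnk2 (ACK1) at 18.8, 39.1 and 15.1. Pak3 was 50.3-fold (29.3-93.6) lower in KO than in control, at 1.05, 0.228 and 11.5 CPM. This ratio is given for the whole epithelium only. There, cells with at least 10 Chga or Chgb UMIs in the other class numbered 17, 17 and 41, and Paneth-high cells 11, 8 and 46, in rescue, KO and control. Their part in it was not tested. Of 23 activators and inhibitors of CDC42, 6 were higher and 9 lower (median -0.15), with Arhgdia, which encodes an inhibitor that holds CDC42 in the cytosol, at 185, 394 and 157. The shares of all genes given above for this comparison, 18.2% higher and 39.3% lower, apply to each list, and no list was tested. Without Paneth-high cells the counts in KO over control were 6 higher and 4 lower for the myosin and cofilin arm, 3 higher and 3 lower for the septins, 4 higher and 7 lower for other effectors and 5 higher and 10 lower for activators and inhibitors. The shares of all genes were then 14.0% and 48.0%.

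**Figure D4:**
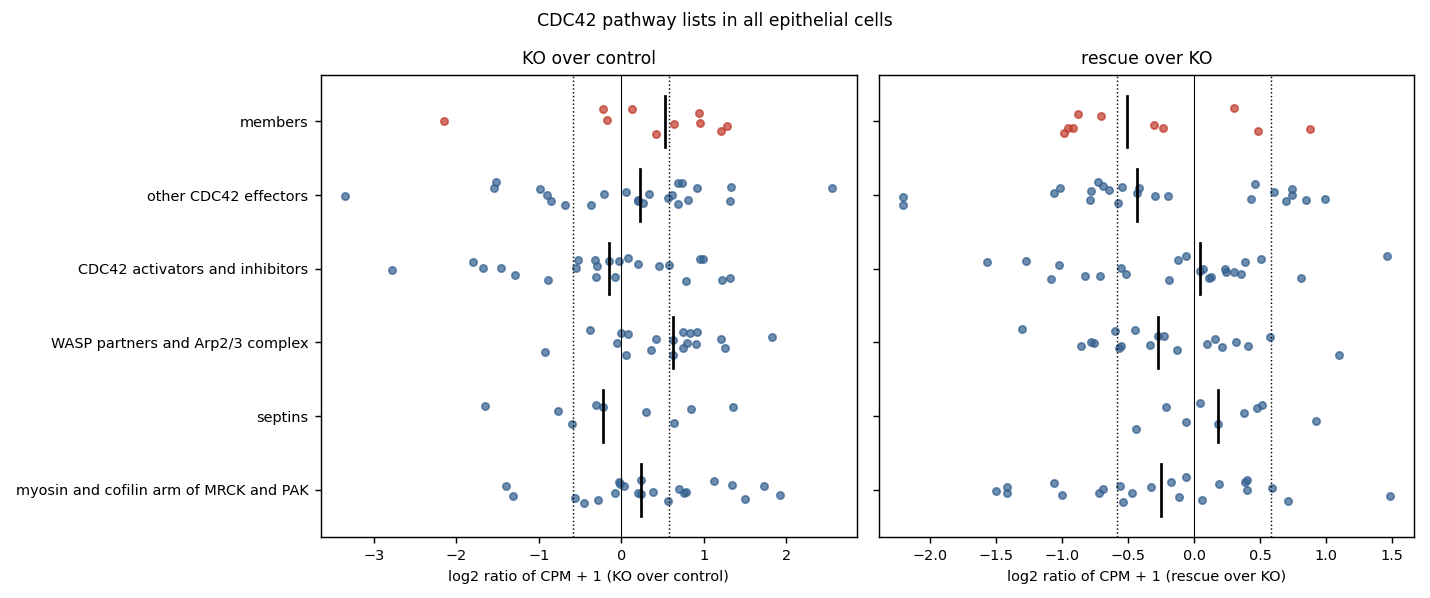
The effectors beside 5 lists of pathway genes. Points are genes that reached 20 UMIs in either library of a pair, placed by log2 ratio of CPM + 1 in all epithelial cells with random vertical spread, and black bars are list medians. In KO over control the member median is 0.53 and that of WASP partners and Arp2/3 subunits 0.63, both right of the median of all genes, -0.28.

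The genes nearest to each member in pattern were found by Pearson's r of log2(CPM + 1) over the 12 class levels, among the 4595 genes with at least 50 CPM in 1 of them. The 12 points share libraries, depths and cell make-up, and r is a description. For Cdc42ep1 they were Slc12a2 (r = 0.973), Sypl (r = 0.968) and Iffo2 (r = 0.965); Slc12a2 encodes a chloride cotransporter of crypt cells. For Cdc42ep5 they were Metrnl (r = 0.968), Fam83h (r = 0.967) and Itga3 (r = 0.965), and for Cdc42bpb Eftud1 (r = 0.980), Mark2 (r = 0.976) and Chmp1a (r = 0.975). The polarity kinase gene Mark2 was also nearest to Wasl, followed by Dapk3 (r = 0.972) and Sin3b (r = 0.965). Cdc42se1 had Lrrfip1 (r = 0.942), Wasl (r = 0.940) and Map4 (r = 0.935), so another member was its second nearest. Pak2 had Mllt4 (r = 0.948), Bspry (r = 0.946) and Senp6 (r = 0.946), and Iqgap1 Ubald2 (r = 0.968), Akt1 (r = 0.965) and Senp6 (r = 0.957). For Pak4 they were Rbck1 (r = 0.968), Hnrnpul2 (r = 0.960) and Fgfr1op2 (r = 0.956). Cdc42ep4 had Stxbp3 (r = 0.890), Smim15 (r = 0.889) and Afg3l2 (r = 0.889), and Cdc42bpa Cant1 (r = 0.920), Cog1 (r = 0.918) and Arrdc1 (r = 0.901). With each library's mean subtracted, 2 of the 3 nearest were kept for Cdc42ep1, 1 of 3 for Cdc42ep5, Cdc42bpb and Pak4, and none for the other 6 members.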

How the data were processed

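The deposited files hold UMI counts per gene and cell barcode for 3 libraries, 1 per genotype; per the file headers they came from Cell Ranger 3.0.2 (KO, control) and 3.1.0 (rescue), whereas the submitters' processing notes name 1.3.0. They name no genome build. Of 28692 gene IDs, 28339 (98.8%) matched GENCODE vM21. The members and lists were chosen with earlier results of these data known; 1 further list of the design is not reported here, and named pathway genes are among the 3 highest and 3 lowest of each list. The limit of 10 Muc2 UMIs was set here. Counts were summed over cells of a class and library; intervals are exact (SciPy 1.17.1). Members were called at 1.5-fold with at least 20 UMIs in either library, and medians use 1 CPM added. Epithelial depth was 39846684, 61355024 and 18549801 UMIs in rescue, KO and control, and the median mitochondrial share 12.2%, 9.53% and 11.7%. Requiring no Ptprc UMI kept 77.7%, 93.0% and 64.9% of Epcam cells. Doublets were kept; as an alternative, simulated doublets marked 29, 33 and 20 cells for removal. Other alternatives were TMM (edgeR 4.0.16), other cell limits, class definitions, weights and thinning; leaving out Paneth-high cells, any Ptprc count and 3 classes weighted equally were chosen after seeing the data. The ratio and its interval were tested on simulated counts with known folds, whereas the summing over cells and the call were not. Python 3.11.15 and R 4.3.3 were used.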

Additional observations from a re-analysis of the deposited data

Results flagged for a closer look

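Some ratios lay past 1.5-fold in opposite directions in different cell classes. None of these differences between classes was tested, and the class sizes and Paneth-high cells differed between the libraries. Cdc42ep4, a Borg protein gene, was 2.31 times control in KO Muc2-high cells and 0.645 times control in KO other cells. Its rescue over KO ratio was 1.54 in other cells and 0.582 in Muc2-high cells. Without Paneth-high cells the Muc2-high KO over control ratio was 1.51 (0.914-2.66).

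The remaining ratios of this kind set rescue against control. Cdc42ep5 stood at 1.73 in Muc2-high and 0.552 in Lgr5-positive cells. Cdc42bpb stood at 1.61 in cycling, 2.23 in Muc2-high and 0.432 in Lgr5-positive cells. Pak2 stood at 1.65 in Muc2-high and 0.651 in Lgr5-positive cells, and Pak4 at 1.70 and 0.540. Paneth-high cells made up 4 of 40 rescue and 19 of 61 control Muc2-high cells, and 6 of 24 rescue and 17 of 124 control Lgr5-positive cells. Without them the Muc2-high ratios were 0.918, 1.37, 0.912 and 1.03 for Cdc42ep5, Cdc42bpb, Pak2 and Pak4, and the Lgr5-positive ratios 0.814, 0.591, 0.833 and 0.801.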

How the results depend on the processing

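In all epithelial cells, 13 ratios lay past 1.5-fold; of their 156 values under alternatives, 146 stayed past it, 8 kept the direction under it and 2 had the other direction. The values that follow are log2 ratios with the other direction, and the cause was not tested. For Cdc42ep1, rescue over KO was -0.12 in all cells with the 4 classes weighted equally, which takes in the 7 KO Lgr5-positive cells. With cells thinned to 5000 UMIs it was -0.021 in all cells and -0.96 in other cells, KO over control in cycling cells was 0.19, and Pak2 in Muc2-high cells was 0.095 for rescue over KO. Thinning leaves few UMIs of Cdc42ep1. In a separate draw it was in 10 of 213 KO and 7 of 76 control cycling cells, and in 3 of 361 rescue and 8 of 928 KO other cells. With at most 10% mitochondrial UMIs, which left 169, 818 and 174 cells, Pak2 in other cells was -0.43 for KO over control and 0.087 for rescue over KO. TMM scaling gave 0.056 for Cdc42ep4 in other cells, KO over control. Cdc42bpb, rescue over control, was -0.62 in Muc2-high cells with equal weight per cell and 0.15 in Lgr5-positive cells assigned before cycling cells. Without Paneth-high cells, Muc2-high ratios were -0.25 for Pak4, KO over control, and -0.12 for Cdc42ep5 and -0.13 for Pak2, rescue over control.

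Of the counts of members in all cells, those higher in rescue than in control were 2, not 0, at 10% mitochondrial UMIs. Those higher in rescue than in KO, 1 in the report, were 2 without mitochondrial and ribosomal protein genes and 0 with thinning or with 4 or 3 classes weighted equally. At a fold of 2, 2 members were higher in KO than in control and 1 lower in rescue than in KO, against 5 each. The shares of all genes under these settings are not given here, so the changed counts are not read as results about the members. No paired analysis was possible because each genotype had 1 library. Depth limits the KO Lgr5-positive levels, from 7 cells, and Cdc42ep1 throughout.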
